A study of Mus musculus with 53 samples.

Results

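The genes described here are nuclear-encoded subunits of the mitochondrial respiratory chain, complexes I to IV, in bulk mRNA libraries of TA3 mouse mammary tumours. They were taken by symbol: every gene named NDUFA, NDUFB, NDUFC, NDUFS or NDUFV plus a number, every UQCR gene, SDHA to SDHD, and the numbered COX4 to COX8 subunits. A gene was kept in a table when its level in CPM, the usual read count scaled to library size, was above 1 in at least 3 libraries. 64 symbols matched among 25157 gene symbols in the 3 deposited tables, and 62 of them passed in at least 1 table. 61 passed in the YM-155 table, 62 in the antibody table and 61 in the time course table. Sorted by name, they comprised 36 genes of complex I, 4 of complex II, 8 of complex III and, depending on the table, 13 or 14 of complex IV. NDUFA4, now placed in complex IV, is counted by its name under complex I. CYC1, the cytochrome of complex III, does not match these names and is described apart. The others, COX6B2, COX7B2 and COX8C, did not pass in the YM-155 table, and COX8C and COX6B2 did not pass in the antibody table and the time course, respectively.

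TA3 Hauschka is a mouse mammary tumour line, studied in a WGD- form, whose genome has not been doubled, and a WGD+ form, whose whole genome has. Cells in Matrigel were grown orthotopically, in the inguinal fat pads of female mice aged 6 weeks, either A/J, an immune-competent strain, or the immune-deficient strain titled NSG. The growth protocol describes the latter as NOD.Cg mice with the Prkdcscid and Il2rgtm1Wjl alleles and the transgene Tg(CMV-IL3,CSF2,KITLG)1Eav, from the MloySzJ colony. 8 groups of 3 libraries combined both forms and both hosts with vehicle or YM-155, an inhibitor of survivin expression, for 14 days. 6 groups, all in A/J, combined both forms with isotype, anti-PD-L1 or anti-CD8 antibody over 14 days; anti-CD8 in WGD- tumours had 2 libraries and the other 5 groups had 3. The last 4 groups were untreated A/J tumours of both forms at day 8 and day 14, with 3 libraries each. The labels do not say that libraries of a group came from separate animals, so the p-values below measure the spread between libraries, which may be technical.

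The respiratory chain passes electrons from NADH through complex I, and from succinate through complex II, to ubiquinone, then through complex III and cytochrome c to oxygen at complex IV. Complexes I, III and IV pump protons, and ATP synthase uses the resulting gradient. A few core subunits of complexes I, III and IV are made from mitochondrial DNA; all other subunits are encoded in the nucleus, and complex II is entirely nuclear. Complex IV carries tissue isoforms: COX7A1 and COX8B belong to heart and skeletal muscle, COX7A2 and COX8A are the general forms, and COX4I2 is a lung form induced at low oxygen. Tumours differ in how far they draw on respiration or on glycolysis for ATP.

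Factors that are known to act at the promoters of these genes include NRF1, the ETS factor GABPA, YY1 and the oestrogen-related receptor alpha, so the promoters of the genes on which the results turn are shown. Promoters of 51 of the 62 genes were found in a RefSeq table (GRCm38.p6, 250 bases before to 50 after the start). On either strand, the NRF1 motif GCGCANGCG stood in 13 of the 51 (25.5%) and in 7.03% of the promoters of 27025 genes. The ETS motif CCGGAAGT stood in 4 (7.84%, against 4.31% of all), the YY1 motif AAGATGGCG in 5 (9.8%, against 1.64%) and the receptor motif TCAAGGTCA in 1 (1.96%, against 0.466%). At least 1 of these motifs was found in 20 of the 51 promoters (39.2%) and in 12.3% of all. In the 250 bases before the start alone, the NRF1 motif stood in 9 (17.6%, against 5.86% of all). The ETS motif stood in 2 there (3.92%, against 3.23%), and the YY1 and receptor motifs in 0, against 0.71% and 0.422%. The sequences below are the part of each window before any annotated exon, 5′ to 3′ on the gene's own strand, with motif matches on either strand in capitals. COX6A1 was called higher in A/J tumours of both forms (chr5:115348982-115349208, minus strand) and has NRF1 matches, of which 2 overlap because the palindromic match reads on both strands.
Cox6a1: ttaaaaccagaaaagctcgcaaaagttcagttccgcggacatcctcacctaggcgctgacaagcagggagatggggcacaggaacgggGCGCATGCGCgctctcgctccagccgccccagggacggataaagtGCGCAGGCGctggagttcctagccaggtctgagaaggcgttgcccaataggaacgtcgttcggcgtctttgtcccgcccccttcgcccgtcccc
In WGD- tumours SDHC was called higher in A/J and SDHA was called lower. The promoter of SDHA (chr13:74350281-74350490, minus strand) also has NRF1 matches.
Sdha: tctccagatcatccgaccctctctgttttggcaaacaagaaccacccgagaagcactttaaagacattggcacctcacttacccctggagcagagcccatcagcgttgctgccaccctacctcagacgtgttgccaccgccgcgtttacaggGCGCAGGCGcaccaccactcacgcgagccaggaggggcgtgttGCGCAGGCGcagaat
UQCRH was called higher in A/J and, in WGD+ tumours, at day 14 (chr4:116075072-116075320, minus strand), and has an ETS match.
Uqcrh: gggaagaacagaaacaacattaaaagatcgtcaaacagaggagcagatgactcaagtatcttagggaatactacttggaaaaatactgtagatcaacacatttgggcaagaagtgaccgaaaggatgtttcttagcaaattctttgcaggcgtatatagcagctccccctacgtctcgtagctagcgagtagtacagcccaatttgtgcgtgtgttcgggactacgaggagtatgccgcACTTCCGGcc
NDUFS3 was the subunit called lower in WGD+ tumours of both hosts (chr2:90904828-90904971, minus strand), and COX8B is a muscle isoform (chr7:140900447-140900696, minus strand). None of the motifs was found in either printed stretch; the full window of NDUFS3 holds an ETS match outside the part printed, and is 1 of the 4 counted above.
Ndufs3: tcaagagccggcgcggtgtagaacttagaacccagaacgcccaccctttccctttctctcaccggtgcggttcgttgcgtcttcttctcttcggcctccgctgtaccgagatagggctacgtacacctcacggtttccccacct
Cox8b: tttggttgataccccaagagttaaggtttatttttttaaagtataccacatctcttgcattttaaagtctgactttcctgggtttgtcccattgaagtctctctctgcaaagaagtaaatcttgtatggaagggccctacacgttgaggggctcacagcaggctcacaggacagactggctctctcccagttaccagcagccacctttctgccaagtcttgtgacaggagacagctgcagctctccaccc

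Levels are the deposited values, log2(CPM + 1), and differences between groups are differences of these values. Depth, recovered from the steps of the values, was 3.23 to 7.75 M reads in the YM-155 table, 9.57 to 15.5 M in the antibody table and 5.25 to 12.2 M in the time course, so that 1 read was worth 0.0623 to 0.358 CPM. Libraries A/J WGD- vehicle replicates 1 and 2, WGD- day 8 replicate 1 and WGD+ day 8 replicate 3 stood apart from the rest of their tables by their correlation with other libraries. Markers of epithelium (EPCAM, keratins, CDH1) were present in every library, with means from 5.90 to 8.16. Of 13 mitochondrially encoded subunits, 0 carry a name in the tables, so the chain was analysed here for its nuclear part.

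Compared per kilobase of principal transcript, the general subunits of complex IV and small accessory subunits led. COX4I1, the general isoform of a regulatory subunit of complex IV, had the highest level per length in all 3 tables, with a median of 863 CPM per kb over the 24 YM-155 libraries. COX8A followed at 771, COX6A1 at 616, and NDUFA4, a subunit with a complex I name that is now placed in complex IV, at 533 CPM per kb. UQCRH, the hinge protein of complex III, stood at 322 CPM per kb. The complex I core subunits ranged lower: NDUFV1 at 133, NDUFS3 at 110 and NDUFS1, which carries iron-sulfur clusters, at 42.4 CPM per kb. In complex II, SDHD, a membrane anchor, stood at 120, SDHA, the flavoprotein, at 85.0, SDHB, the iron-sulfur protein, at 63.8 and SDHC, the other anchor, at 37.7 CPM per kb. COX7A1, COX8B and COX4I2, the tissue isoforms, stood at 3.70, 2.43 and 1.82 CPM per kb. Summed over all members, CPM was 9383, 10697 and 10626 in the A/J WGD- vehicle libraries. In the NSG WGD+ vehicle libraries the sums were 6705, 6430 and 6142. CPM rests here on library sizes multiplied by scaling factors, which were 0.999, 0.863 and 0.930 in these A/J libraries. In these NSG libraries the factors were 1.05, 1.08 and 1.10. The sums are therefore not shares of each library's reads, and such shares would lie closer together between the 2 groups.

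**Figure D1:**
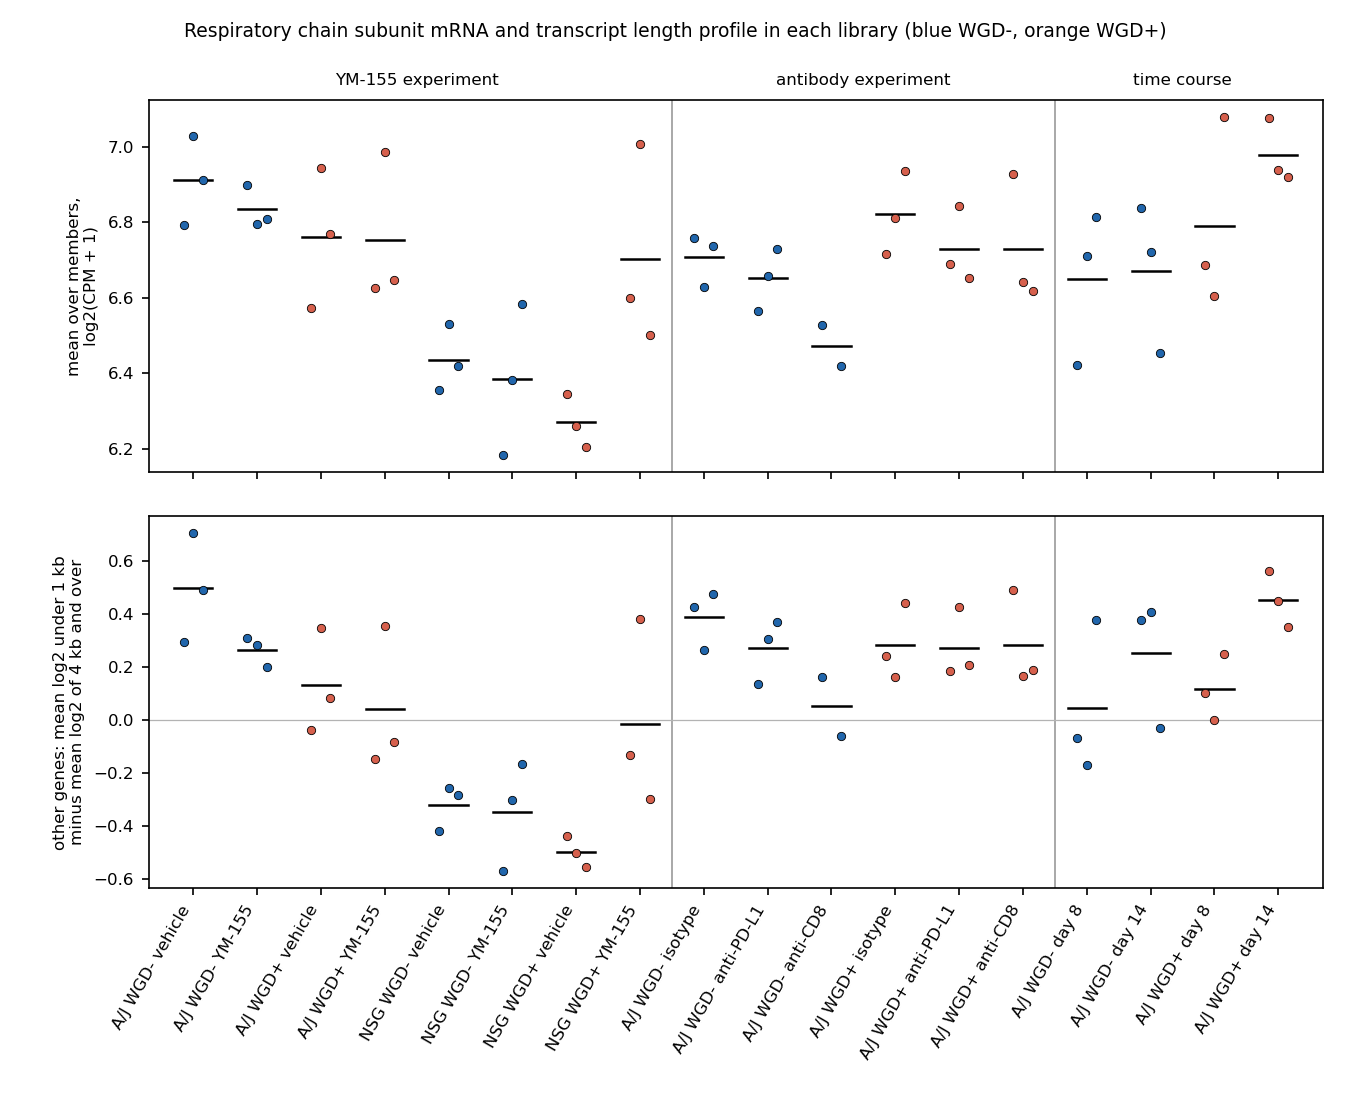
Upper panel: mean level over the members, log2(CPM + 1), in each library (points; blue WGD-, orange WGD+) with group means (bars). Lower panel: in the same libraries, the mean log2 of other genes under 1 kb minus that of genes of 4 kb and over. The 6 NSG vehicle libraries are low in both panels.

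Of the 19 comparisons between groups, the host comparisons had the most calls: vehicle tumours had more mRNA of many subunits in A/J than in NSG mice. In WGD- tumours, 36 of 61 subunit genes were called higher in A/J and 2 lower (limma, Benjamini-Hochberg adjusted p under 0.05); of all 13826 genes tested, 34.5% were called in either direction, 16.2% higher and 18.3% lower. The median difference over the members was 0.54, with quartiles of 0.25 and 0.76, against -0.03 over all genes. In WGD+ tumours 28 were called higher and 0 lower, with a median of 0.47 against 0.00, where 12.5% of all genes were called, 7.2% higher and 5.32% lower. The WGD- and WGD+ comparisons share no library, and 23 genes were called in both, which is 60.5% of the first list and 82.1% of the second. The share of all genes called in both is not given here. Other genes under 1 kb also had positive medians in both forms, 0.57 in WGD- and 0.42 in WGD+ tumours. Of the 61 differences, 53 were above 0 in WGD- tumours, where 48.0% of all genes were. In WGD+ tumours 58 were, where 50.3% of all genes were, and 52 were above 0 in both forms. In WGD- tumours the A/J and NSG libraries did not overlap for 44 genes higher in A/J, with 20.6% of all genes in that position, and for 2 genes lower, against 23.0%. Without A/J WGD- vehicle replicates 1 and 2, which stand apart, the median was 0.56, and 1 library was left in that group.

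Complex I held most of the calls. In WGD- tumours 25 of its 36 genes were higher in A/J (median 0.61) and in WGD+ tumours 21 (median 0.60). Its 7 core subunits, among them those that carry the flavin and the iron-sulfur clusters, had 3 calls and a median of 0.42 in WGD- tumours, and the 29 other subunits had 22 and a median of 0.63. NDUFA5, an accessory subunit of the arm that reaches into the matrix, measured 7.56, 7.91 and 7.67 in the A/J WGD- libraries and 6.54, 6.59 and 6.60 in the NSG ones. Its difference was 1.14 (SE 0.257, limma adjusted p = 0.00237, n = 3 and 3), and the 2 hosts did not overlap. In WGD+ tumours it measured 7.03, 8.21 and 7.34 in A/J and 6.49, 6.45 and 6.58 in NSG, a difference of 1.02 (SE 0.257, limma adjusted p = 0.0152), with A/J replicate 2 far above the other A/J libraries. NDUFA2, another accessory subunit, was at 6.57, 7.34 and 7.17 in A/J WGD- and at 5.85, 6.21 and 6.06 in NSG WGD- libraries (0.98, SE 0.273, limma adjusted p = 0.00909). NDUFA1, a small membrane subunit encoded on the X chromosome, was at 5.57, 6.31 and 5.84 in A/J WGD+ and at 5.21, 4.90 and 4.73 in NSG WGD+ libraries (0.96, SE 0.210, limma adjusted p = 0.0071). For both genes every A/J library lay above every NSG library. Among the core subunits, NDUFV2 was called higher in A/J WGD- tumours (0.74), whereas NDUFV1 and NDUFS8 were not called there, with differences of -0.02 and -0.03 (SE 0.122 and 0.128). NDUFS1 was at 6.86, 6.04 and 6.42 in A/J and 6.81, 6.72 and 6.91 in NSG WGD- libraries, overlapping and not called.

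Of the 4 genes of complex II, 1 was called higher and 1 lower in A/J WGD- tumours. SDHC was called higher in A/J in WGD- (0.52, SE 0.124) and WGD+ tumours (0.47, SE 0.124). SDHA measured 7.83, 7.39 and 7.66 in A/J WGD- libraries and 8.17, 7.93 and 7.94 in NSG ones, a difference of -0.39 (SE 0.133, limma adjusted p = 0.0288), so that the A/J libraries all lay below. This call was lost in 2 of 6 fits that left out 1 library and without both libraries that stand apart (limma adjusted p = 0.148). In WGD+ tumours SDHA differed by 0.14 (SE 0.133) and was not called. SDHB and SDHD were not called in either form, with differences between 0.07 and 0.27.

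In complex III, 4 of 8 genes were higher and 1 lower in A/J WGD- tumours, and 2 were higher in WGD+ tumours. UQCRQ, a small subunit at the ubiquinone-binding side, measured 8.06, 8.83 and 8.30 in A/J WGD- and 7.09, 7.45 and 7.29 in NSG WGD- libraries. The difference was 1.12 (SE 0.222, limma adjusted p = 0.000941), and in WGD+ tumours it was 0.75 (SE 0.222, limma adjusted p = 0.0302). UQCRC1, a core protein, was called lower in A/J WGD- tumours, at 7.98, 7.46 and 8.09 in A/J against 8.34, 8.40 and 8.32 in NSG (-0.51, SE 0.158, limma adjusted p = 0.0155). Without both libraries that stand apart its difference was -0.26 (limma adjusted p = 0.337). UQCRFS1, the Rieske iron-sulfur protein, and UQCRC2, the other core protein, were not called in either form.

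In complex IV, 6 of 13 genes were higher in A/J WGD- tumours and 4 in WGD+ tumours, with medians of 0.42 in both. COX6C, a small membrane subunit, measured 7.72, 8.18 and 7.82 in A/J WGD- and 6.60, 7.07 and 6.92 in NSG WGD- libraries (1.05, SE 0.214, limma adjusted p = 0.00111). In WGD+ tumours its difference was 0.51 (SE 0.214, limma adjusted p = 0.11) and it was not called. COX4I1 measured 9.41, 9.88 and 9.64 in A/J WGD+ and 8.79, 8.70 and 8.56 in NSG WGD+ libraries (0.96, SE 0.180, limma adjusted p = 0.00277). COX6A1, the general isoform of its subunit, measured 8.50, 8.90 and 8.52 in A/J WGD+ and 7.85, 7.58 and 7.75 in NSG WGD+ libraries (0.91, SE 0.187, limma adjusted p = 0.00473). Both genes were called in all 6 fits that left out 1 library. Over all members, 6 of the 28 WGD+ calls held in all such fits, and the number called fell to 6 without A/J WGD+ replicate 2, whereas 26 of the 38 WGD- calls held in all of them. The difference between the host effects was itself tested as an interaction, and limma called 0 members in it (0.0% of all genes), with 5 at an unadjusted p under 0.05, where 12.9% of all genes were, and 0 called by voom.

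**Figure D2:**
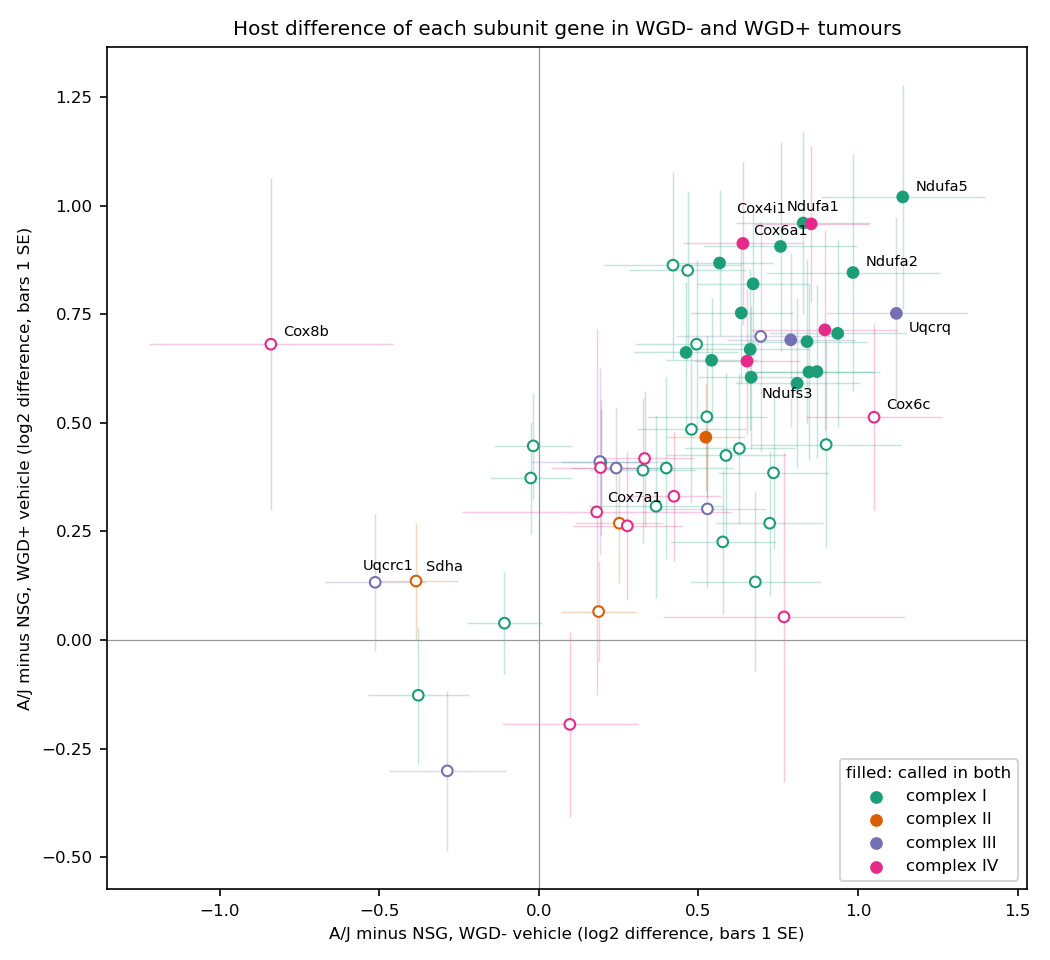
A/J minus NSG difference of each member (log2 scale) in WGD- vehicle tumours (horizontal) and WGD+ vehicle tumours (vertical), with bars of 1 SE and colours for complexes. Filled points are the 23 genes called in both, which all lie in the upper right.

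The host difference ran along with transcript length in all genes. The members' principal transcripts measured 0.36 to 4.37 kb with a median of 0.75 kb, against 2.97 kb over all genes tested in the YM-155 table. In WGD- tumours the 722 other genes with transcripts under 1 kb had a median A/J minus NSG difference of 0.57 and the 37 members of that length 0.64. The share called higher was 45.8% of the other short genes, and 25 of the 37 members were called higher. From 1 to 2 kb the medians were 0.25 over 2740 other genes and 0.48 over 19 members; the 4050 other genes of 4 kb and over had a median of -0.29. In WGD+ tumours the medians were 0.42 for other genes under 1 kb, 0.64 for members under 1 kb, and -0.24 for other genes of 4 kb and over. Within libraries, the mean log2 level of genes under 1 kb minus that of genes of 4 kb and over was 0.30, 0.71 and 0.49 in the A/J WGD- vehicle libraries and -0.42, -0.26 and -0.29 in the NSG WGD- ones. In WGD+ vehicle tumours it was -0.04, 0.35 and 0.08 in A/J and -0.44, -0.50 and -0.56 in NSG.

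After a curve of level against transcript length, fitted over genes that are not members, was subtracted from each library, fewer members were called. This alternative was chosen after seeing the data. The share of all genes called after the correction is not given here, so the counts below have no background to be set against. In WGD- tumours 14 members were then called, 8 higher and 6 lower in A/J, with a median of 0.04. Among those higher were UQCRQ (0.89), NDUFS4 (0.63), NDUFA5 (0.63), SDHC (0.63), NDUFA13 (0.60), NDUFV2 (0.56) and COX6C (0.48). COX8B (-1.61), UQCRC1 (-0.70), UQCR10 (-0.53), NDUFS8 (-0.47), COX8A (-0.46) and SDHA (-0.33) were lower. For UQCR10 and COX8A the sign turned with the correction. Their deposited means were 6.45 and 8.81 in A/J against 6.26 and 8.62 in NSG. The deposited means of NDUFS8 were close, at 6.62 in A/J and 6.64 in NSG. For COX8B, a muscle isoform, the NSG libraries held 8, 47 and 5 reads. The 47 were in replicate 2, whose skeletal muscle marker mean was 7.74. In this comparison 2 of 10 muscle markers were called lower in A/J and 0 higher. Without the correction 18.3% of all genes were called lower and 16.2% higher, so the muscle count is near that background. Marker means were 4.75 to 5.65 in A/J and 5.15 to 7.74 in NSG, and their part in this call was not tested. In WGD+ tumours 5 were called, all higher in A/J, with a median of 0.18 over the members, among them NDUFA5 (0.61), COX4I1 (0.53), NDUFA12 (0.51) and SDHC (0.50). NDUFA5 and SDHC were thus called higher in A/J in both forms with and without the correction. In WGD+ tumours their uncorrected calls held in 3 of 6 and 2 of 6 fits without 1 library. After the correction the limma adjusted p of NDUFA5 there was 0.0474.

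**Figure D3:**
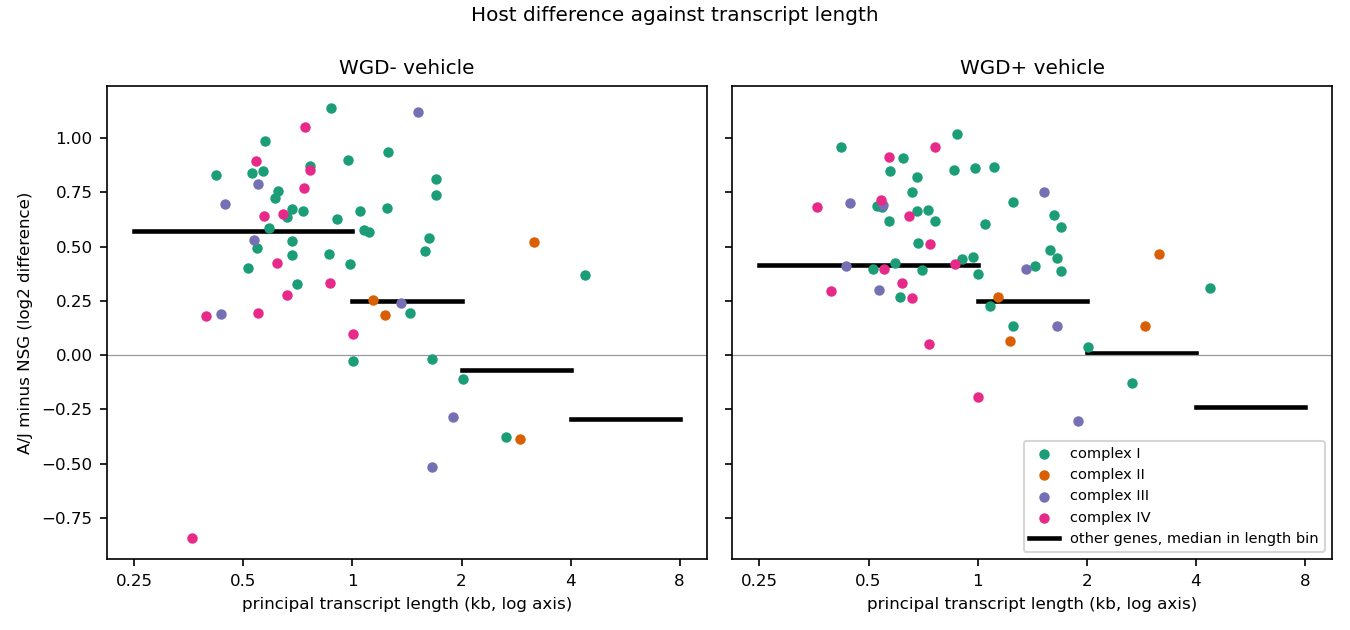
A/J minus NSG difference (log2 scale) of each member against the length of its principal transcript (kb, log axis), in WGD- (left) and WGD+ vehicle tumours (right), coloured by complex. Black bars give the median of the other genes in each length class, which falls from 0.57 to -0.29 on the left and from 0.42 to -0.24 on the right.

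Other mitochondrial gene groups were mixed in the same host comparison, and several of their counts lie near the shares over all genes (16.2% higher and 18.3% lower in WGD-, 7.2% and 5.32% in WGD+ tumours). Of other genes under 1 kb, 45.8% were called higher in WGD- tumours, and the lists were not matched for length. In WGD- tumours 5 of 16 named ATP synthase subunit genes were higher in A/J and 1 lower (USMG5 1.13, ATP5L 1.01). 10 of 28 assembly factors of complexes II to IV were higher and 0 lower, among them COA6 (1.15) and COX14 (1.07), and 1 of 13 complex I assembly factors was higher and 1 lower. Of 77 mitochondrial ribosome genes, 28 were higher and 3 lower, with a median of 0.36. Tricarboxylic acid cycle enzymes had 0 of 13 higher and 4 lower, with a median of -0.32, among them IDH3A (-0.53). Of 11 regulators of mitochondrial biogenesis, 1 was higher and 3 lower, among them POLRMT, the mitochondrial RNA polymerase (-1.26), and PPRC1, a relative of the PGC-1 coactivators (-0.80). Glycolysis genes had 4 of 14 higher and 2 lower. CYC1, the cytochrome of complex III, was lower (-0.58) and COX7A2L, which joins complexes III and IV, was higher (0.98). In WGD+ tumours the calls were 4 of 16 for ATP synthase and 13 of 77 for the mitochondrial ribosome, all higher in A/J, and 0 of 13 for the tricarboxylic acid cycle.

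Markers of other cell types also differed between the hosts. The mean level of cytotoxic lymphocyte markers was 1.60 to 1.63 in A/J WGD- vehicle libraries and 0 to 0.0287 in NSG WGD- ones, and 5 of 5 tested markers were higher in A/J. In WGD+ vehicle tumours it was 0.399 to 0.871 in A/J, and all 7 markers in the table were at 0 in the 3 NSG libraries. Liver markers such as ALB were higher in A/J WGD- libraries for 6 of 8 genes, with means of 1.11 to 6.63 against 0.0456 to 0.339 in NSG. Fibroblast markers were lower in A/J for 3 of 8 genes in each form, and 12 of 15 genes of the G2/M phase were lower in A/J WGD- tumours. Of all genes, 16.2% were called higher and 18.3% lower in WGD- tumours, and 7.2% and 5.32% in WGD+ tumours. The part of these markers in the host difference was not tested, and in bulk tissue fewer cells of a type and less RNA per cell cannot be told apart.

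Between the forms, vehicle tumours differed by few respiratory chain genes, and NDUFS3 was called in both hosts. These comparisons use the same vehicle libraries as the host comparisons. NDUFS3 (chr2:90894634-90904827, GRCm38, minus strand) encodes a core subunit of the hydrophilic arm of complex I. It measured 7.55, 7.65 and 7.55 in A/J WGD- and 6.52, 6.84 and 6.71 in A/J WGD+ vehicle libraries. The difference was -0.90 (SE 0.165, limma adjusted p = 0.0024, n = 3 and 3). In NSG it measured 6.86, 6.91 and 6.99 in WGD- and 6.22, 5.95 and 6.08 in WGD+ libraries, a difference of -0.84 (SE 0.165, limma adjusted p = 0.00672). WGD- and WGD+ libraries did not overlap in either host, and the hosts share no library. The A/J call held in 6 of 6 fits without 1 library and the NSG call in 5 of 6. When only the compared groups were fitted, the A/J call was lost and the NSG call was kept. After the length correction the differences were -0.74 in both hosts (limma adjusted p = 0.000452 in A/J and 0.000554 in NSG). Without both A/J WGD- libraries that stand apart, which leaves 1 library in that group, the A/J difference was -0.86 (limma adjusted p = 0.0818).

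In the other tables NDUFS3 was not called. Its WGD+ minus WGD- difference was -0.30 under isotype antibody, where WGD- libraries measured 7.35, 7.21 and 7.25 and WGD+ libraries 6.77, 7.13 and 7.01 (limma adjusted p = 0.239). It was -0.27 under anti-PD-L1 and -0.11 under anti-CD8. At day 8 the difference was 0.24, with 6.73, 6.89 and 6.62 in WGD- and 6.84, 6.86 and 7.27 in WGD+ libraries. At day 14 it was -0.10 (limma adjusted p = 0.785), with 7.0, 6.96 and 7.05 in WGD- and 6.98, 6.88 and 6.87 in WGD+ libraries. The isotype groups did not overlap, and the day 8 and day 14 groups did.

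**Figure D4:**
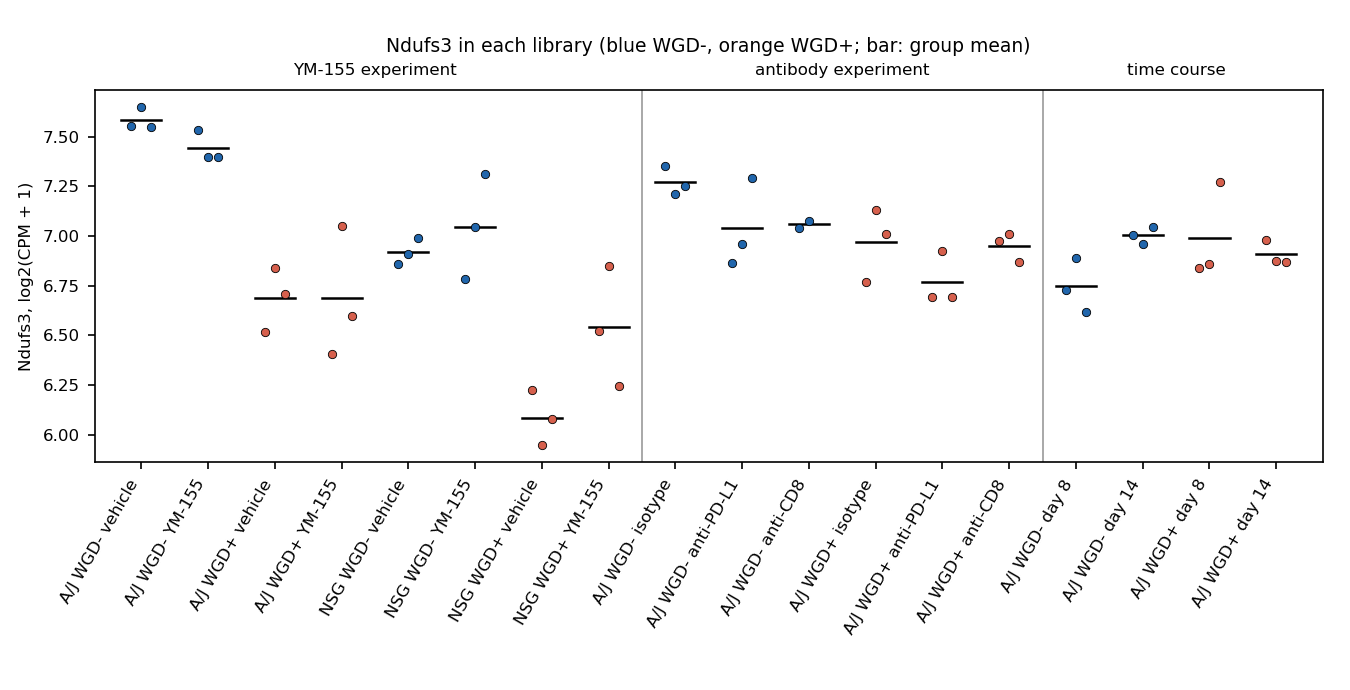
NDUFS3 level, log2(CPM + 1), in each of the 53 libraries (points; blue WGD-, orange WGD+) with group means (bars). In the YM-155 experiment every WGD+ vehicle library lies below every WGD- vehicle library of the same host; in the time course the forms overlap at day 8 and day 14.

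Across the chain, 1 of 61 members was called higher and 1 lower in WGD+ vehicle tumours in A/J, where 11.1% of all genes were called, 6.3% higher and 4.8% lower. In NSG 0 were called higher and 1 lower, where 2.85% of all genes were called, 0.897% higher and 1.95% lower. When only the NSG vehicle groups were fitted, 12 members were called, 1 higher and 11 lower, among 2462 of all 13826 genes. The median over the members was -0.14 in both hosts, with 48 of 61 differences below 0 in each, where 47.4% and 49.0% of all genes were. In A/J the 722 other genes under 1 kb had a median of -0.25 and the 37 members of that length -0.15; in NSG the medians were -0.11 and -0.17. After the length correction 23 of 61 members were below 0 in A/J (median 0.03), so that the direction turned there, and 35 in NSG (median -0.08). The other call was SDHA in A/J, at 7.83, 7.39 and 7.66 in WGD- and 8.13, 7.96 and 8.04 in WGD+ libraries (0.42, SE 0.133, limma adjusted p = 0.0455). It was kept in 2 of 6 fits without 1 library, and after the length correction its adjusted p was 0.0521. Without both A/J WGD- libraries that stand apart its difference was 0.38 (limma adjusted p = 0.271). In NSG its difference was -0.10 (SE 0.133, limma adjusted p = 0.766), and the forms overlapped. Of related lists in A/J, 2 of 13 tricarboxylic acid cycle genes (IDH3A 0.55) and 3 of 11 biogenesis regulators (POLRMT 0.90) were higher in WGD+ tumours and 0 lower. Liver markers differed in this comparison as well, 6 of 8 called lower in WGD+ tumours (0.023 to 0.509 against 1.11 to 6.63), and their part was not tested.

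In A/J tumours 1 member was called between YM-155 and vehicle. In WGD- tumours NDUFV1, the NADH-binding core subunit of complex I, measured 7.71, 7.80 and 7.72 with vehicle and 8.41, 8.02 and 8.19 with YM-155, without overlap. It was the 1 member called (0.47, SE 0.122, limma adjusted p = 0.0369), where 4.19% of all genes were called and 2.22% were called higher. The call held in 2 of 6 fits without 1 library and was absent with voom, although after the length correction its adjusted p was 0.0312. In WGD+ tumours limma called 0 members (0.0% of all genes), with 0 at an unadjusted p under 0.05, where 3.22% of all genes were, and 0 called by voom. The interaction between YM-155 and form in A/J also had 0 calls by limma and voom, with 3 members at an unadjusted p under 0.05, where 11.9% of all genes were.

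In NSG WGD+ tumours most YM-155 minus vehicle differences of the members were positive, and none passed the adjusted test. This comparison shares the NSG WGD+ vehicle libraries with the host comparison. 56 of 61 differences were above 0, where 48.0% of all genes were, with a median of 0.46, and libraries did not overlap for 44 genes higher with YM-155, against 12.8% of all genes. limma called 0 members, and 0.00723% of all genes; 39 members had an unadjusted p under 0.05, all higher, where 7.64% of all genes did, and voom called 0. NDUFS8, a core iron-sulfur subunit of complex I, measured 6.42, 6.31 and 6.39 with vehicle and 6.92, 7.24 and 6.84 with YM-155 (0.63, SE 0.128, limma adjusted p = 0.124). NDUFB8, an accessory subunit of the membrane arm, measured 6.52, 6.52 and 6.50 with vehicle and 7.14, 7.57 and 7.03 with YM-155 (0.73, SE 0.176, limma adjusted p = 0.124). YM-155 replicate 2 was the highest for both, and the members' mean was 7.01 in it against 6.50 and 6.60 in the other two. Genes under 1 kb that are not members had a median of 0.33 and those of 4 kb and over -0.19 in this comparison, against 0.56 for the 37 members under 1 kb. The short minus long level was 0.38 in YM-155 replicate 2 and -0.13 and -0.30 in the other two. After the length correction the members' median was 0.18 and 0 were called. In NSG WGD- tumours limma called 0 members, with 2 at an unadjusted p under 0.05, both lower, where 3.65% of all genes were, and 0 by voom.

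Under antibodies, all in A/J, members were called in 1 comparison. In anti-CD8 tumours 2 of 62 were called higher in WGD+ than in WGD- tumours and 0 lower, where 1.57% of all genes were called and 0.578% were called higher. NDUFS7, a core iron-sulfur subunit next to the ubiquinone site, measured 6.43 and 6.38 in WGD- and 7.86, 7.20 and 7.24 in WGD+ libraries (1.03, SE 0.231, limma adjusted p = 0.0405, n = 2 and 3). NDUFA5 measured 6.70 and 6.54 in WGD- and 7.97, 7.30 and 7.42 in WGD+ libraries (0.95, SE 0.210, limma adjusted p = 0.0389). WGD+ replicate 1 was the highest for both, and both calls held in 1 of 5 fits without 1 library. After the length correction their adjusted p-values were 0.029 and 0.0214, and with the replicate number as a block 0.0788 and 0.0727. In WGD- tumours with isotype antibody NDUFS7 was at 6.92, 6.99 and 7.07 and NDUFA5 at 7.50, 7.12 and 7.39. Their anti-CD8 minus isotype differences there were -0.59 (limma adjusted p = 0.381) and -0.72 (limma adjusted p = 0.368), a comparison that shares the 2 WGD- anti-CD8 libraries.

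No other antibody comparison gave a call among the members with limma or voom. Of all genes, limma called 1.1% between forms under isotype and 0.701% under anti-PD-L1, and at most 0.00723% between an antibody and isotype. Anti-CD8 against isotype in WGD- tumours had 14 members at an unadjusted p under 0.05, all lower, where 5.07% of all genes were, and a median of -0.23. The 740 other genes under 1 kb had a median of -0.19 there and the 38 members of that length -0.31. In WGD+ tumours it had 10, all lower, where 4.02% of all genes were. Anti-PD-L1 against isotype had 1 in each form, where 3.76% of all genes in WGD- and 3.64% in WGD+ tumours had such a p. Between forms, 8 members had an unadjusted p under 0.05 under isotype, against 18.9% of all genes, and 6 of them were higher in WGD+, against 9.41%. Under anti-PD-L1 5 members did, all higher, against 10.6%. Under isotype the smallest p-values were those of COX6B2, the testis isoform of a complex IV subunit, at 1.10, 0.70 and 1.47 in WGD- and 0.19, 0.15 and 0.38 in WGD+ libraries (limma adjusted p = 0.148), and NDUFC1 (0.35, limma adjusted p = 0.172). Under anti-PD-L1 they were UQCRC2 (0.45, limma adjusted p = 0.15) and NDUFS1 (0.34, limma adjusted p = 0.171). The interactions of anti-PD-L1 and anti-CD8 with form had 0 calls by limma and voom, with 1 and 9 members at an unadjusted p under 0.05, against 1.68% and 16.6% of all genes.

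In the time course, a few respiratory chain genes were called higher at day 14 than at day 8 in WGD+ tumours, and these calls were not stable. 6 of 61 members were called higher at day 14 and 0 lower, where 11.2% of all genes were called and 7.0% were called higher, so the share of members is near that background. UQCRH measured 7.41, 7.46 and 7.67 at day 8 and 8.69, 8.27 and 8.20 at day 14 (0.87, SE 0.253, limma adjusted p = 0.0451). NDUFV3, the smallest subunit of the NADH-binding module, measured 5.93, 5.70 and 6.16 at day 8 and 6.79, 6.39 and 6.81 at day 14 (0.73, SE 0.207, limma adjusted p = 0.0413). COX4I1 measured 9.35, 9.35 and 9.26 at day 8 and 10.18, 9.99 and 9.91 at day 14 (0.71, SE 0.201, limma adjusted p = 0.043). NDUFC2, a membrane-arm subunit, measured 7.34, 6.87 and 7.02 at day 8 and 7.67, 7.68 and 8.0 at day 14 (0.70, SE 0.182, limma adjusted p = 0.0321). Every day 14 library lay above every day 8 library for these genes; COX8A (0.70) and COX6A1 (0.57) were the other 2 called. None of the 6 calls held in any fit without 1 library, and after the length correction 0 members were called. The short minus long level was 0.10, 0.000483 and 0.25 in the day 8 and 0.56, 0.45 and 0.35 in the day 14 libraries. In WGD- tumours limma and voom called 0 members between the days, where limma called 0.846% of all genes. There 0 members had an unadjusted p under 0.05, against 10.5% of all genes. The interaction of day with form had 0 calls by both among the members and 3.42% of all genes called by limma. In it 7 members had an unadjusted p under 0.05, against 21.6% of all genes.

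Between forms, limma and voom called 0 members at day 8, where limma called 3.39% of all genes, with 3 at an unadjusted p under 0.05, all higher in WGD+, against 7.98% of all genes. NDUFB6, a membrane-arm subunit, measured 6.16, 6.44 and 6.79 in WGD- and 6.87, 6.95 and 7.04 in WGD+ libraries (0.49, SE 0.156, limma adjusted p = 0.106, and 0.0425 after the length correction). At day 14, a comparison that shares the WGD+ day 14 libraries with the one between days, they also called 0, where limma called 0.445% of all genes, and 18 members had an unadjusted p under 0.05, all higher in WGD+, where 6.48% of all genes did. The median was 0.32, with 55 of 61 differences above 0, against 48.1% of all genes. NDUFC2 (0.64, limma adjusted p = 0.131) and COX4I1 (0.65, limma adjusted p = 0.161) had the smallest p-values. Members under 1 kb had a median of 0.41 and other genes under 1 kb 0.18.

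COX8B, a muscle isoform of complex IV, was highest in the libraries with the most skeletal muscle marker mRNA. COX7A1, the other muscle isoform, had a higher median in those libraries but overlapped with the rest. The mean of 10 such markers was 6.89 to 10.3 in 7 libraries, spread over all 3 tables, and 1.84 to 6.06 in the other 46; this division was made after seeing the values and carries no test. In the 7, COX8B ranged from 2.30 to 5.92 with a median of 3.04 and COX7A1 from 1.83 to 5.16 with a median of 2.09. In the other 46 COX8B ranged from 0 to 1.61 with a median of 0.56, and COX7A1 from 0.28 to 2.34 with a median of 1.15. For their general counterparts the range in the 7 lay within that in the 46: COX8A measured 8.17 to 8.74 and 8.03 to 9.14, and COX7A2 6.54 to 6.96 and 6.11 to 7.49. WGD+ day 8 replicate 3 was the highest, with a muscle mean of 10.3, COX8B at 5.92 and COX7A1 at 5.16, while the other day 8 WGD+ libraries had COX8B at 0.00 and 0.61. WGD- isotype replicate 2 (8.25, with COX8B at 3.50 and COX7A1 at 2.76) and NSG WGD- vehicle replicate 2 (7.74, with 2.87 and 1.89) came next. In WGD- vehicle tumours COX8B measured 1.13, 2.87 and 0.78 in NSG and 1.01, 1.05 and 0.20 in A/J libraries, so the hosts overlap. Neither isoform was called by limma in any comparison of the deposited values with all libraries. In the YM-155 table COX4I2 lay between 0.18 and 2.59 and COX4I1 between 8.56 and 10.1.

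**Figure D5:**
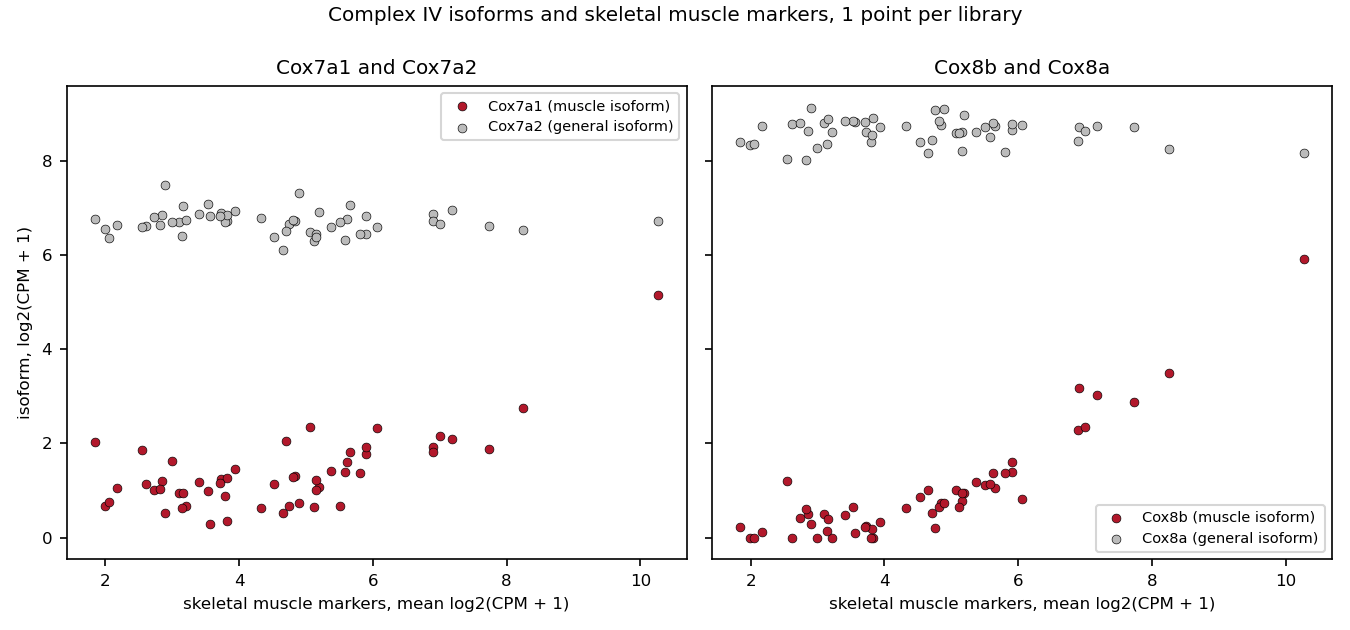
Complex IV isoforms against the mean of 10 skeletal muscle markers, both log2(CPM + 1), with 1 point per library: COX7A1 and COX7A2 (left), COX8B and COX8A (right). The muscle isoforms (red) reach 5.16 and 5.92 in the library with the highest muscle mean, while the general isoforms (grey) stay between 6.11 and 9.14.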

How the data were processed

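Bulk tumour mRNA of 53 libraries in 18 groups was read from 3 tables of gene levels. The authors deposited them in log2 units, log2(CPM + 1) by their values. STAR 2.5.1b, edgeR and mm10 are named, per the submitters' processing notes; for the counting tool and the annotation the entry is: not given in the sources used here. Library kits were stranded TruSeq mRNA, per the labels' protocols. The values are multiples of 1 read's worth, and 100% of them came out within 0.1 of a whole read, which gave the depth. Groups come from the titles; the genotype field disagrees with them in 12 libraries. 25 to 27 rows per table carry dates in place of symbols and were not used. The tests took genes whose CPM exceeded 1 in 3 or more libraries of a table (13826, 13840 and 13478 genes), so a gene high in 1 group passes through it. The main test was limma 3.58.1 (R 4.3.3) on the deposited values with 1 mean per group, all groups of a table sharing the spread, and trended, robust empirical Bayes; a call is a Benjamini-Hochberg adjusted p under 0.05 over all genes tested in a table. A pseudocount of 1 is in the values, so differences of low genes are understated. The fit was first tested on simulated data with known changes, in 1 comparison of each table. It called 51% to 53% of genes changed 2-fold and 99% to 100% of those changed 4-fold. Of unchanged genes it called 0.0733% to 0.0881%. A change of 2-fold or less can thus go uncalled. The simulation gave every gene the same spread, changed no genes at low level, and held no outlying library or length trend. The simulated rates may therefore not carry over to these libraries or to members at low level. Statistics are printed for up to 4 called members each way with the largest difference among those whose groups did not overlap, or the 2 with the smallest p; other members are named with values. The members, lists and tests were chosen with earlier results of these data known. Alternatives were no filter, quantile scaling, a fit of the compared groups alone, the replicate number as a block, voom on recovered reads and leaving out each library. Added after seeing the data were fits without the libraries that stand apart (best correlation more than 3 median absolute deviations below the median) and the length correction (lowess of level on principal transcript length, GENCODE, per library). Numbers were taken to pair libraries only where all of at least 3 pairs of deviations correlated above 0.1, which held in 0 of 17 comparisons with 3 pairs. Of the 2 comparisons with 2 pairs, the one between forms under anti-CD8 had both above 0.1 (0.396 and 0.461), too few by this rule. Some genes, including 1 that fits the naming pattern and was left out of the members, are not reported here.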

Additional observations from a re-analysis of the deposited data

How the results depend on the processing

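The number of members called stayed within 1.5 times for most comparisons and alternatives; the exceptions follow. Host, WGD- vehicle (38 called): 27 to 41 with 1 library left out, 19 without both libraries that stand apart, 14 length-corrected. Host, WGD+ vehicle (28): 6 to 31 with 1 library left out (6 without A/J WGD+ replicate 2, 12 without its replicate 3, 8 without NSG WGD+ replicate 3, 11 without its replicate 2, 18 without its replicate 1) and 5 length-corrected. Form, A/J vehicle (2): 1 to 5 with 1 left out, 1 with no filter, voom or length correction, 0 when only the compared groups were fitted or without both libraries that stand apart. Form, NSG vehicle (1): 0 to 1 with 1 left out and 12 when only the compared groups were fitted. YM-155 in A/J WGD- (1): 0 to 3 with 1 left out and 0 with only the compared groups, voom or without both libraries that stand apart. YM-155 in NSG WGD+ (0): 0 to 1. Form under anti-PD-L1 (0): 0 to 7, with 7 without WGD- anti-PD-L1 replicate 3. Form under anti-CD8 (2): 0 to 4 with 1 left out, 0 with no filter, 5 with only the compared groups and 0 with the replicate block. Form at day 8 (0): 0 to 1, and 1 length-corrected. Day in WGD+ (6): 0 in every fit with 1 left out, 1 with no filter, 3 with quantile scaling, 1 with the replicate block, 2 with voom and 0 length-corrected. Day by form (0): 0 to 1, and 1 without both libraries that stand apart. The replicate block gave 41 and 30 calls in the host comparisons. No called member changed sign under the alternatives run. The cause of these shifts was not tested. With 2 or 3 libraries a group and 3.23 to 15.5 M reads a library, small differences may not be detectable.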

Other observations

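Genes around NDUFS3 were examined after its values were seen. Within 1 Mb of its start, 25 other genes were tested in the YM-155 table and 24 in each of the other tables. In vehicle tumours 19 of the 25 were lower in WGD+ than in WGD- tumours in A/J (median difference -0.36) and 24 in NSG (-0.41), where 47.4% and 49.0% of all genes were below 0. 5 were called lower by limma in A/J (MTCH2, CELF1, PSMC3, PACSIN3 and F2) and 4 in NSG, among them PSMC3 and PACSIN3, and 0 were called higher. Of 24, 21 were below 0 under isotype antibody (-0.26), 23 under anti-PD-L1 (-0.27), 20 under anti-CD8 (-0.36), 9 at day 8 (0.09) and 19 at day 14 (-0.23). The neighbours share libraries with NDUFS3, and no test of their shared direction was made.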
